A study of Mus musculus with 4 samples.

Results

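Chemokine receptors are G protein-coupled receptors on the cell surface that steer migrating leukocytes along gradients of small secreted proteins, the chemokines. T cells change the receptors they make as they leave the thymus, meet antigen and enter tissue, so these genes describe where a cell can be drawn. The 8 receptor genes Cxcr3, Cxcr4, Cxcr5, Cxcr6, Ccr2, Ccr4, Ccr8 and Ccr9 were taken as a named list, not by their values, out of 27998 genes, and all 8 had counts in sorted islet T cells. The cells came from female, pre-diabetic NOD mice, in which autoimmune diabetes arises without any engineered gene, and no treatment or genetic change was named for either age. At 16 weeks and at 8 weeks, live TCR beta-positive cells were sorted from pancreatic islets and, by droplet-based 5′ chemistry, each age gave 1 library of RNA and 1 of T cell receptors. How many mice went into each library is not stated. With 1 library per age nothing was tested between ages: each value carries a 95% interval for counting error, and variation between mice was not measured.

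By known function the receptors fall into 4 sets. Cxcr3 binds Cxcl9, Cxcl10 and Cxcl11 and is a receptor of type 1 helper and effector Cd8 T cells, Cxcr6 binds Cxcl16 and marks effector and tissue-resident T cells, and Ccr2 binds Ccl2 and is best known for drawing monocytes, although effector and regulatory T cells also use it. Ccr8, whose ligand is Ccl1, and Ccr4, which binds Ccl17 and Ccl22, are found on regulatory and type 2 helper T cells in tissue. Cxcr5 follows Cxcl13 into B cell follicles and defines follicular helper T cells, while Cxcr4 binds Cxcl12 and is shared by most lymphocytes. Ccr9 binds Ccl25, the chemokine of thymus and small intestine, and is kept by naive Cd8 T cells in mice.

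In the mouse build mm10, 6 of the 8 genes lie on chromosome 9. Ccr9 (ENSMUSG00000029530, chr9:123678439-123784330, plus strand), Cxcr6 (ENSMUSG00000048521, chr9:123806475-123811760, plus strand) and Ccr2 (ENSMUSG00000049103, chr9:124101950-124113557, plus strand) sit within 435 kb of each other. Ccr8 (ENSMUSG00000042262, chr9:120092114-120094906, plus strand), Ccr4 (ENSMUSG00000047898, chr9:114490316-114504916, minus strand) and Cxcr5 (ENSMUSG00000047880, chr9:44511787-44561877, minus strand) lie apart from them. Cxcr4 (ENSMUSG00000045382) is at chr1:128588199-128592293 on the minus strand and Cxcr3 (ENSMUSG00000050232) at chrX:101731535-101734269 on the minus strand.

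Cxcr6 and Ccr8 were found in the same cell more often than their shares predict, at both ages, so the stretches just upstream of their start sites are shown as printed in RefSeq for build GRCm38.p6, plus strand, 5′ to 3′. The Cxcr6 stretch is chr9:123806227-123806474 and the Ccr8 stretch chr9:120091883-120092113, each ending just before the gene's annotated start. Capitals mark matches to the letters searched.
Cxcr6: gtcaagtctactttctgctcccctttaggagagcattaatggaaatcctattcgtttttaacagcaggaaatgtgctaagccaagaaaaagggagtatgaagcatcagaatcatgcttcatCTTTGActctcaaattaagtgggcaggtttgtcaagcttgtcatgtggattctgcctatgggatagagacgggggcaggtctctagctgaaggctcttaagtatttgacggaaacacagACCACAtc
Ccr8: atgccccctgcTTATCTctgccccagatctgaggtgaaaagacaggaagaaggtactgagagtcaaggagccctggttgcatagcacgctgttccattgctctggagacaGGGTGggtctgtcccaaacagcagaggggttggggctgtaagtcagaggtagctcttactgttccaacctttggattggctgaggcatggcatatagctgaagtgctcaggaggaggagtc
The capitals in Cxcr6 are a Tcf-Lef motif (CTTTGA) 129 bases and a Runx motif (TGTGGT on the other strand) 10 bases before the RefSeq start. In Ccr8 they are a Gata motif (AGATAA on the other strand) 239 bases and a Klf motif (CACCC on the other strand) 140 bases before the RefSeq start. The last 2 bases before that start in Cxcr6 and the last 19 in Ccr8 fall inside the annotated gene and are not printed. Searched on both strands of the 250 bases before the start, Runx letters were in 14.0% of 32851 promoters, Tcf-Lef letters in 13.8%, Gata letters in 9.99% and Klf letters in 52.0%. Over the 7 receptor genes in the RefSeq table, which lacks Cxcr5, Runx letters were in 2 (Cxcr6 and Cxcr3), Tcf-Lef letters in 2 (Cxcr6 and Ccr4), Gata letters in 2 (Ccr8 and Ccr2) and Klf letters in 4 (Cxcr4, Ccr4, Ccr8 and Ccr9). Of the 250 bases searched, all in Ccr4 and Ccr9, 233 in Ccr2 and 122 in Cxcr3 fall inside the gene span given above. The AP-1 letters TGACTCA, in 4.46% of promoters, were in Ccr4 only, and the T-box letters GGTGTGA (3.33%) and Ets letters CCGGAAG (6.91%) were in none of the 7 windows. No motif was shared by Cxcr6 and Ccr8. These are matches of letters in the reference strain, not sites of binding, and the NOD genome can differ from it.

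The libraries held 8183747 UMIs (unique molecular identifiers, each standing for 1 captured RNA molecule) at 16 weeks and 8659371 at 8 weeks. After filters on genes, mitochondrial share and RNA of other cells, 1924 and 1865 cells were kept, with median depths of 2928.5 and 2975 UMIs. Cells with Cd4 UMIs and no Cd8a or Cd8b1 UMI were split by Foxp3, the transcription factor of regulatory T cells. This gave 93 and 115 Foxp3-positive cells at 16 and 8 weeks (median depths 6003 and 5848 UMIs), 648 and 655 conventional Cd4 cells (3050 and 3183 UMIs), and 320 and 295 Cd8 cells (3250.5 and 3363 UMIs). The other 863 and 800 kept cells showed neither or both coreceptors and are not classed. T cell receptor complex markers were present in each class, and the summed regulatory markers were at 2376 and 2606 CPM (UMIs of the genes per 1000000 UMIs of the class) in Foxp3-positive cells, against 685 and 788 CPM in conventional Cd4 cells. Of the B cell list, 2 to 5 of 7 genes found were detected, with 45 to 66 UMIs (16.9 to 87.5 CPM) in each class and Ms4a1 at 0 in all 3. Of the myeloid list, 1 to 5 of 7 were detected, with 3 to 20 UMIs (3.41 to 13.9 CPM) and Adgre1 and Fcgr1 at 0 in all 3. The part of such RNA in the results was not tested. RNA of acinar cells, the enzyme-making cells around the islets, was found in every class at 62.1 to 187 CPM and was higher at 16 weeks in each. The Foxp3-positive cells were the deepest and more often carried 2 or more beta chains, a sign of doublets (33 of 93 and 31 of 115 cells, against 84 of 648 and 58 of 655 conventional Cd4 cells).

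Levels of single genes are given as CPM too, from UMIs summed over a class. A lower sum can come from fewer cells making the RNA or from less RNA per cell, which a sum cannot tell apart, so the share of cells with a UMI stands beside it. Because deep cells detect more, shares were also taken after each cell was thinned to 1700 UMIs.

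Cxcr3 was highest in Foxp3-positive cells, where the intervals of the ages overlapped, whereas in Cd8 and conventional Cd4 cells it was lower at 16 weeks than at 8 weeks. In Foxp3-positive cells it reached 151 CPM at 16 weeks (95% interval 123 to 182) and 169 CPM at 8 weeks (143 to 199). Cd8 cells had 61.7 CPM at 16 weeks (49.1 to 76.7, 82 UMIs) and 118 CPM at 8 weeks (101 to 138, 162 UMIs). Conventional Cd4 cells had 79.7 CPM at 16 weeks (69.4 to 91.2, 212 UMIs) and 139 CPM at 8 weeks (126 to 153, 424 UMIs). Foxp3-positive cells thus stood clear of both other classes at 16 weeks, where the intervals of Cd8 and conventional Cd4 cells overlapped, while at 8 weeks each class overlapped its neighbour in the order Foxp3-positive, conventional Cd4, Cd8. The share of conventional Cd4 cells with a Cxcr3 UMI was 18.8% at 16 weeks and 32.5% at 8 weeks, and 9.02% (6.88 to 11.6) and 18.4% (15.4 to 21.7) at 1700 UMIs. Among Cd8 cells the share was 15.9% and 25.8%, but 8.52% (5.64 to 12.2) and 10.6% (7.24 to 14.7) at 1700 UMIs, where the intervals overlapped. Foxp3-positive cells had 22.0% and 20.6% at 1700 UMIs, and 53.8% and 51.3% at full depth.

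Cxcr6 had its highest value in Cd8 cells at both ages. Cd8 cells had 111 CPM at 16 weeks (93.5 to 130) and 163 CPM at 8 weeks (142 to 186). Foxp3-positive cells had 97.6 CPM (75.8 to 124) and 114 CPM (92.5 to 138). Conventional Cd4 cells had 54.5 CPM (46.0 to 64.2) and 70.7 CPM (61.5 to 80.8), below both other classes at each age. Cd8 and Foxp3-positive intervals overlapped at 16 weeks and not at 8 weeks. In thinned cells the share with a Cxcr6 UMI was 11.5% and 15.8% of Cd8 cells, 18.7% and 15.9% of Foxp3-positive cells and 5.80% and 7.62% of conventional Cd4 cells. The thinned shares of Cd8 cells (8.13 to 15.6 and 11.8 to 20.6) and of Foxp3-positive cells (11.3 to 28.2 and 9.54 to 24.2) overlapped at both ages. At full depth the shares were 19.1% and 29.8% of Cd8 cells, 36.6% and 30.4% of Foxp3-positive cells and 10.6% and 13.3% of conventional Cd4 cells.

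Ccr2 was concentrated in Foxp3-positive cells. These had 66.0 CPM at 16 weeks (48.3 to 88.0) and 68.2 CPM at 8 weeks (52.0 to 87.8). In Cd8 cells the level was 11.3 CPM (6.32 to 18.6, 15 UMIs) and 27.8 CPM (19.7 to 38.1, 38 UMIs). In conventional Cd4 cells it was 19.9 CPM (14.9 to 26.1) and 22.0 CPM (67 UMIs). The Foxp3-positive interval lay above both others at each age, and Cd8 and conventional Cd4 cells overlapped each other at each age. In thinned cells Ccr2 was found in 9.89% and 16.8% of Foxp3-positive cells, in 1.31% and 2.46% of Cd8 cells and in 1.61% and 2.81% of conventional Cd4 cells.

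Ccr8 gave the clearest order of all members: Foxp3-positive above conventional Cd4 above Cd8 cells, with no overlap at either age. Foxp3-positive cells had 77.5 CPM at 16 weeks (58.2 to 101, 54 UMIs) and 128 CPM at 8 weeks (106 to 154, 113 UMIs). Cd8 cells had 4.52 CPM (1.66 to 9.83, 6 UMIs) and 11.0 CPM (6.14 to 18.1, 15 UMIs). Conventional Cd4 cells had 23.7 CPM (18.2 to 30.3) and 33.5 CPM (27.3 to 40.7). The share of Foxp3-positive cells with a Ccr8 UMI was 29.0% and 40.0%, and 15.4% (8.67 to 24.5) and 16.8% (10.3 to 25.3) at 1700 UMIs. Cd8 T cells are not a usual source of Ccr8. At 1700 UMIs it was in 0 of 305 Cd8 cells at 16 weeks, which allows up to 0.984%, and in 2.46% at 8 weeks. Conventional Cd4 cells had 2.58% (1.48 to 4.15) and 4.97% (3.38 to 7.01). At 8 weeks the thinned share of conventional Cd4 cells overlapped that of Cd8 cells (0.997 to 5.01). The conventional Cd4 class held cells with several regulatory markers, some of which activated T cells also make. With 3 or more regulatory markers other than Foxp3, 141 of 648 (21.8%) and 202 of 655 (30.8%) of its cells formed that group, and these were deep cells (median 5481 and 6421.5 UMIs). Whether Foxp3 was missed in them was not tested.

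Ccr4, the other receptor of regulatory and type 2 cells, was scarce. Foxp3-positive cells had 11.5 CPM at 16 weeks (4.96 to 22.6, 8 UMIs) and 23.9 CPM at 8 weeks (14.8 to 36.5, 21 UMIs). Cd8 cells had 1 and 5 UMIs, or 0.753 and 3.66 CPM. Conventional Cd4 cells had 5.64 CPM (3.16 to 9.31) and 10.2 CPM (6.92 to 14.5). Only at 8 weeks did the Foxp3-positive interval lie above that of conventional Cd4 cells. At these counts a difference between ages within a class was not detectable beyond counting error.

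Cxcr5 was the only member highest in conventional Cd4 cells. Foxp3-positive cells had 21.5 CPM at 16 weeks (12.0 to 35.5, 15 UMIs) and 17.0 CPM at 8 weeks (9.54 to 28.1, 15 UMIs). Cd8 cells, which rarely make it, had 9.04 CPM (4.67 to 15.8) and 8.77 CPM (4.53 to 15.3), from 12 UMIs at each age. Conventional Cd4 cells had 22.2 CPM (16.9 to 28.6, 59 UMIs) and 37.8 CPM (31.2 to 45.4, 115 UMIs). At 16 weeks Foxp3-positive and conventional Cd4 cells did not differ beyond their intervals, and at 8 weeks conventional Cd4 cells stood above both other classes. Cxcr5 was seen in 6.33% and 11.8% of conventional Cd4 cells, against 3.75% and 3.39% of Cd8 cells. Thinned, the shares were 3.06% and 4.64% of conventional Cd4 cells and 1.97% and 1.06% of Cd8 cells. At 16 weeks the thinned shares overlapped within their intervals (1.85 to 4.74 and 0.725 to 4.23), while the intervals of the CPM levels did not.

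Cxcr4 gave 29 UMIs or fewer in any class and no order between classes. The values were 14.3 CPM at 16 weeks (6.88 to 26.4) and 12.5 CPM at 8 weeks (6.24 to 22.4) in Foxp3-positive cells. In Cd8 cells they were 6.78 CPM (3.10 to 12.9) and 4.39 CPM (1.61 to 9.55). In conventional Cd4 cells they were 10.9 CPM (7.31 to 15.7) and 8.22 CPM (5.32 to 12.1). All of these intervals overlapped within each age.

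Ccr9 was a Cd8 transcript. Cd8 cells had 26.4 CPM at 16 weeks (18.4 to 36.6, 35 UMIs in 31 of 320 cells) and 14.6 CPM at 8 weeks (8.93 to 22.6, 20 UMIs in 18 of 295 cells). Conventional Cd4 cells, which give the background, had 2 UMIs at 16 weeks (0.752 CPM) and 9 UMIs at 8 weeks (2.96 CPM). The share of thinned cells with Ccr9 was 4.59% (2.53 to 7.58) and 2.11% (0.779 to 4.54) of Cd8 cells. In conventional Cd4 cells it was 0 of 621, which allows up to 0.483%, and 0.497% at 8 weeks. Foxp3-positive cells had 7 UMIs at 16 weeks, 6 of them in 1 cell, and none at 8 weeks, so no level is drawn from them.

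**Figure D1:**
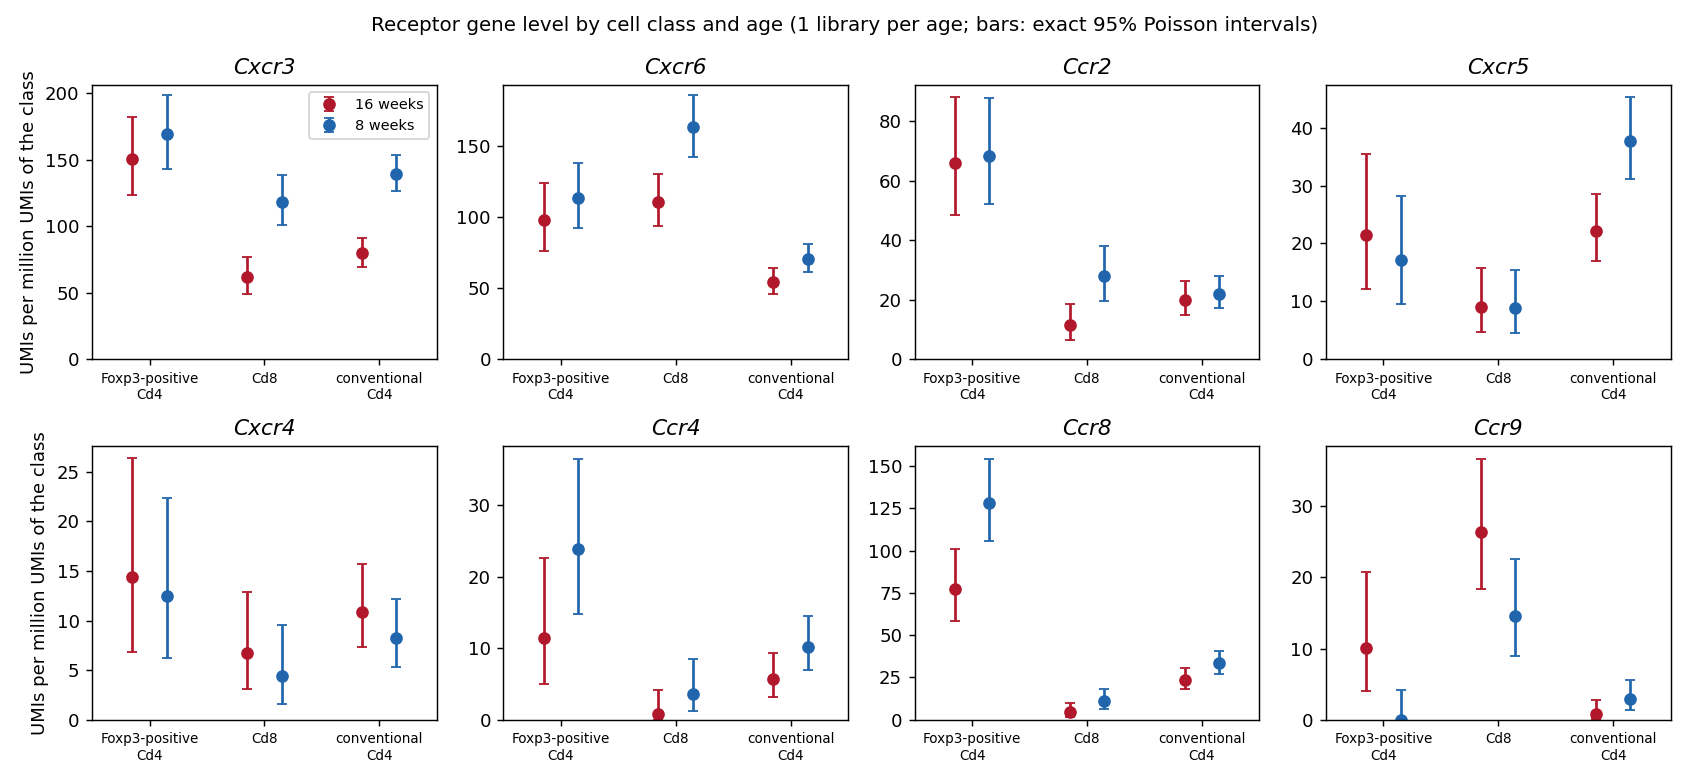
Level of each receptor gene in CPM of the class (y axes, each with its own scale) for Foxp3-positive Cd4, Cd8 and conventional Cd4 cells at 16 weeks (red) and 8 weeks (blue). Points are sums over the cells of 1 library and bars exact 95% Poisson intervals for counting error; Ccr8 and Ccr2 are highest in Foxp3-positive cells at both ages, Ccr9 and Cxcr6 in Cd8 cells, and Cxcr5 at 8 weeks in conventional Cd4 cells.

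Set side by side within a library, 5 of the 7 members measured (20 or more UMIs over both groups) were 1.5-fold or more higher in Foxp3-positive than in conventional Cd4 cells at 16 weeks, where 24.3% of 8361 measured genes passed that fold in either direction, 16.2% upward and 8.1% downward. The log2 ratios were 1.73 for Ccr2 (95% interval 1.12 to 2.32), 1.71 for Ccr8 (1.16 to 2.26), 0.92 for Cxcr3 (0.57 to 1.26), 0.84 for Cxcr6 (0.40 to 1.26) and 1.06 for Ccr4 (-0.42 to 2.35). The interval of Ccr4 includes no difference. Cxcr5 was at -0.01 (-0.97 to 0.79) and Cxcr4 at 0.44 (-0.81 to 1.47).

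At 8 weeks 5 of 7 were higher and 1 was lower, against 23.0% of 8700 genes past the fold, 13.5% upward and 9.46% downward. Ccr8 was at 1.94 (1.54 to 2.34), Ccr2 at 1.63 (1.10 to 2.16), Ccr4 at 1.24 (0.36 to 2.07), Cxcr6 at 0.69 (0.33 to 1.03) and Cxcr4 at 0.64 (-0.57 to 1.68). Cxcr3 was at 0.28, within the fold, and Cxcr5 at -1.11 (-2.03 to -0.37) was the member that was lower. The median over all measured genes was 0.12 at 16 weeks and 0.08 at 8 weeks. Centring on it brought Cxcr4 at 8 weeks within the fold and moved no other member across it. Left without cells of 2 or more beta chains, 60 and 84 Foxp3-positive cells gave log2 ratios of 2.38 and 1.46 for Ccr2, 1.81 and 1.86 for Ccr8 and 1.21 and 0.51 for Cxcr6 at 16 and 8 weeks. If cells with regulatory markers but no Foxp3 UMI are counted with the Foxp3-positive cells, the ratio of Cxcr5 at 8 weeks turns to 0.52.

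The comparison of Cd8 with conventional Cd4 cells put 6 of 7 measured members past 1.5-fold at 16 weeks, against 18.3% of 8610 genes, and 6 of 8 at 8 weeks, against 19.4% of 8869 genes. Higher genes made up 6.85% and 7.84% and lower genes 11.4% and 11.5%. Those higher in Cd8 cells were Ccr9, with log2 ratios of 4.83 (3.17 to 8.23) at 16 weeks and 2.26 (1.11 to 3.62) at 8 weeks, and Cxcr6, with 1.02 (0.68 to 1.36) and 1.21 (0.93 to 1.48). Lower in Cd8 cells were Ccr8, with -2.29 (-3.89 to -1.19) and -1.57 (-2.50 to -0.82), and Cxcr5, with -1.25 (-2.33 to -0.39) and -2.05 (-3.10 to -1.25). Ccr2 at 16 weeks (-0.79) and Cxcr4 at both ages (-0.63 and -0.82) passed the fold with intervals that include 0, and Ccr4 at 8 weeks was at -1.36 (-3.20 to -0.10). Cxcr3 stayed within the fold, at -0.36 and -0.23. With 50 or more UMIs needed to be measured, 3 of 5 measured members passed at 8 weeks.

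Set against 8 weeks by CPM, Cxcr3 was lower at 16 weeks in Cd8 and conventional Cd4 cells and Cxcr5 in conventional Cd4 cells. Ccr2 was lower in Cd8 cells and Ccr8 in Foxp3-positive cells, while Ccr9 was higher in Cd8 cells. In conventional Cd4 cells 3 of 7 measured members were 1.5-fold or more lower at 16 weeks than at 8 weeks, against 6.8% of 9263 genes (12.7% in either direction). These were Cxcr3 at a log2 ratio of -0.80 (-1.05 to -0.56), Cxcr5 at -0.76 (-1.25 to -0.30) and Ccr4 at -0.83 (-1.85 to 0.08). Cxcr6 (-0.37, -0.69 to -0.06) and Ccr8 (-0.50, -0.98 to -0.03) were lower within the fold, Ccr2 was at -0.14 and Cxcr4 at 0.40. The median of the measured members was -0.50, beside -0.05 over all genes. Without cells of 2 or more beta chains 5 of 7 measured members passed the fold.

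In Cd8 cells 4 of 6 measured members passed the fold, against 15.4% of 7699 genes (8.91% downward). Lower at 16 weeks were Ccr2 at -1.27 (-2.27 to -0.40) and Cxcr3 at -0.94 (-1.34 to -0.55). The ratio of Ccr8, -1.21 (-2.93 to 0.17, 6 and 15 UMIs), also passed the fold, but its interval includes 0 and it rests on few UMIs. Ccr9 was higher at 16 weeks, at 0.83 (0.02 to 1.72). Cxcr6 was just within the fold at -0.56 (-0.87 to -0.25) and Cxcr5 at 0.04.

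In Foxp3-positive cells 2 of 7 passed it, against 19.3% of 6667 genes (9.25% downward): Ccr8, lower at -0.72 (-1.22 to -0.25), and Ccr4, at -1.0 (-2.44 to 0.18). The share of thinned Foxp3-positive cells with Ccr8 was 15.4% (8.67 to 24.5) at 16 weeks and 16.8% (10.3 to 25.3) at 8 weeks. These intervals overlapped. Cxcr3 (-0.17, -0.54 to 0.20), Cxcr6 (-0.22, -0.69 to 0.24) and Ccr2 (-0.04, -0.63 to 0.53) had intervals that include no difference in these cells. Without cells of 2 or more beta chains, or with a gate of 2 UMIs, 1 of only 4 measured members passed. Whether the age difference of a gene differs between the classes was not tested.

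**Figure D2:**
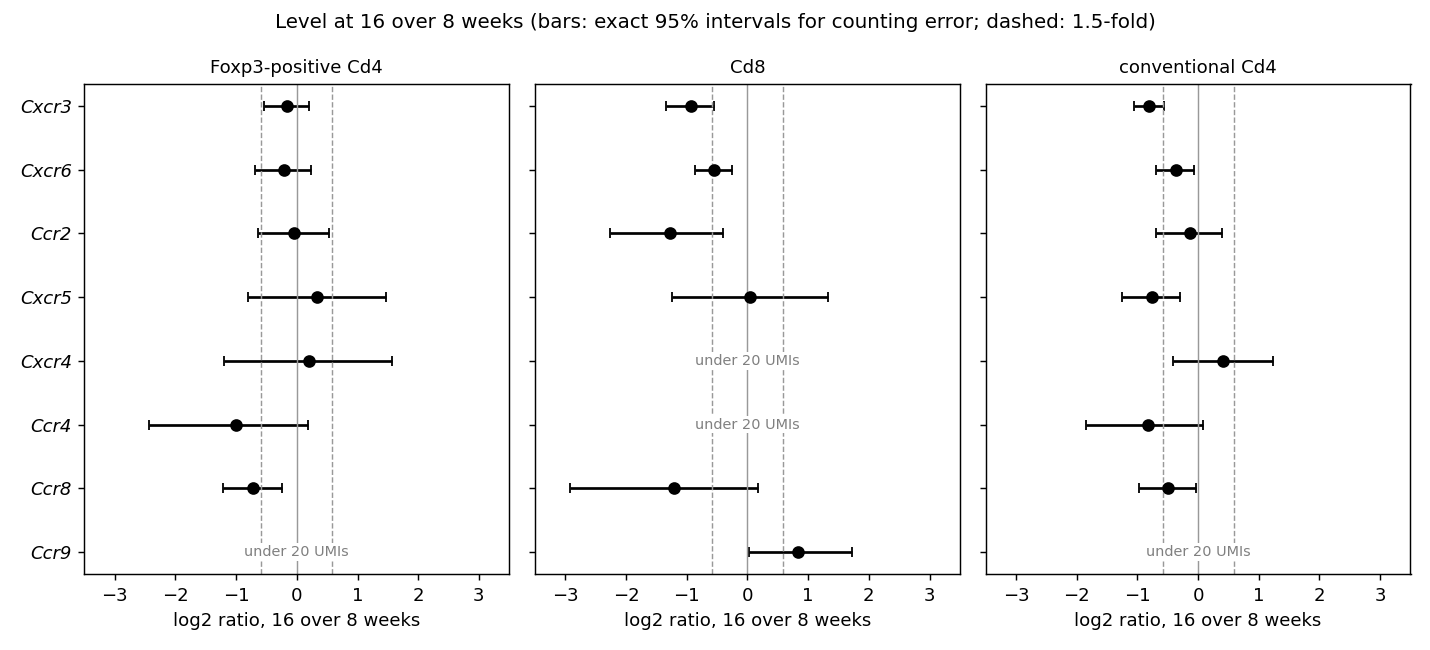
Log2 ratio of the level at 16 weeks over that at 8 weeks (x axes) for each receptor gene in Foxp3-positive Cd4, Cd8 and conventional Cd4 cells, with exact 95% intervals for counting error and dashed lines at 1.5-fold. Points left of 0 are lower at 16 weeks: Cxcr3 is at -0.94 in Cd8 and -0.80 in conventional Cd4 cells and at -0.17 in Foxp3-positive cells, and Ccr9 lies right of 0 in Cd8 cells.

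Genes of naive and recirculating T cells moved with age in the other direction. Summed over 5 such genes, among them the transcription factors Lef1 and Klf2 and the receptors S1pr1 and Ccr7, the level was 1744 CPM at 16 weeks and 1092 CPM at 8 weeks in conventional Cd4 cells, and 1968 and 1268 CPM in Cd8 cells. Foxp3-positive cells had 872 and 625 CPM. All 10 naive and egress genes measured had ratios above 0 in conventional Cd4 cells, and 4 were 1.5-fold or more higher at 16 weeks, against 5.94% of genes. Cells with 2 or more of the 5 genes at 1700 UMIs, called naive-type here, made up 58.1% and 41.4% of conventional Cd4 cells, 67.5% and 52.1% of Cd8 cells and 25.3% and 22.4% of Foxp3-positive cells.

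The receptors were spread unevenly over this split. In conventional Cd4 cells Cxcr3 had 27.7 CPM at 16 weeks and 80.0 CPM at 8 weeks in naive-type cells, and 124 and 186 CPM in the others, a log2 ratio of -1.51 (-2.46 to -0.65) among naive-type cells and of -0.57 (-1.07 to -0.10) among the others. For Cxcr6 the naive-type cells had 9.78 and 28.2 CPM and the others 104 and 99.7 CPM (0.07, -0.52 to 0.64). Among the other conventional Cd4 cells of this thinned split, Cxcr6 did not differ between ages beyond its interval. By the same split Cxcr3 was lower at 16 weeks in both kinds of cell. Thinned cells show fewer naive genes than at full depth, so the others can still hold naive-type cells. With naive-type cells left out at full depth, Cxcr3 stayed within the fold (given below). A lower Cxcr3 among non-naive cells is therefore not established. Cxcr5 had 6.52 and 9.41 CPM in naive-type cells and 38.5 and 44.9 CPM in the others (-0.21, -1.19 to 0.71). For Ccr8 these were 9.78 and 0 CPM, and 29.4 and 56.5 CPM (-0.91, -1.99 to 0.02).

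Cd8 cells showed the same split for Cxcr3, with 25.7 and 27.8 CPM in naive-type cells and 119 and 130 CPM in the others (-0.12, -1.02 to 0.74). Ccr9 stood on the opposite side: naive-type Cd8 cells had 37.1 and 27.8 CPM, from 13 and 7 UMIs, and the others 5.94 and 4.33 CPM, from 1 UMI each. Ccr8 at 8 weeks was in 7 of 136 other Cd8 cells (8 UMIs, 34.6 CPM) and in 0 of 148 naive-type ones. At 16 weeks both kinds of Cd8 cell had 0 Ccr8 UMIs. Among Foxp3-positive cells Ccr8 had 2 UMIs at each age in naive-type cells. In the other Foxp3-positive cells it had 121 and 120 CPM, from 14 and 17 UMIs (0.02, -1.12 to 1.12). With cells of 2 or more naive genes at full depth left out, 0 of 5 measured members passed 1.5-fold in conventional Cd4 cells and 1 of 3 in Cd8 cells. The log2 ratios of conventional Cd4 cells were then -0.24 for Cxcr3, 0.32 for Cxcr6 and -0.30 for Cxcr5. How far the share of naive-type cells accounts for the age differences was not tested.

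**Figure D3:**
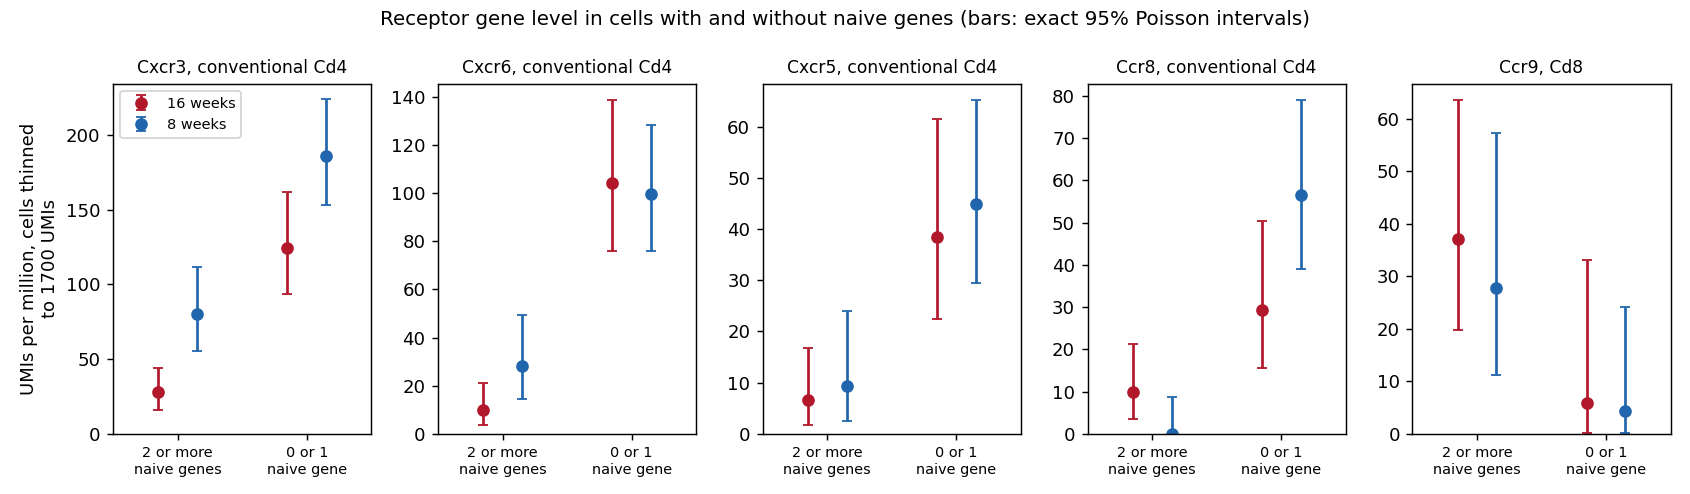
Levels in CPM (y axes) of Cxcr3, Cxcr6, Cxcr5 and Ccr8 in conventional Cd4 cells and of Ccr9 in Cd8 cells, split into cells with 2 or more of 5 naive genes and cells with 0 or 1, at 16 weeks (red) and 8 weeks (blue), all thinned to 1700 UMIs. Bars are exact 95% Poisson intervals; the 4 receptors of conventional Cd4 cells are higher in cells with 0 or 1 naive gene and Ccr9 has its higher point in cells with 2 or more.

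Clone size was read from cells with both an alpha and a beta chain: 1390 of 1924 kept cells at 16 weeks (72.2%) and 1356 of 1865 at 8 weeks (72.7%). The alpha and the beta chain with most UMIs made the pair. Cells with 2 or more beta chains were thus included, such as 71 of 447 single and 7 of 54 expanded conventional Cd4 cells at 16 weeks. Cells whose receptor was shared by 2 or more cells numbered 96 in 37 clones at 16 weeks and 197 in 64 clones at 8 weeks, and the largest clones held 7 and 14 cells. Cells of a clone are not independent, and expanded cells were also deeper in each class. In conventional Cd4 and Cd8 cells, but not in Foxp3-positive cells at 8 weeks (9 of 13 expanded and 51 of 85 single cells), they were less often naive-type. Among conventional Cd4 cells the median depth was 4760 UMIs in expanded and 3235 in single cells at 16 weeks and 4924.5 and 3310.5 at 8 weeks. At full depth 38.9% of expanded and 80.5% of single cells held 2 or more naive genes at 16 weeks, and 33.0% and 73.0% at 8 weeks.

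At 16 weeks expanded conventional Cd4 cells (54 cells of 27 clones) had more of the receptors of inflamed tissue and of Cxcr5 than single ones (447 cells): 4 of 6 measured members were 1.5-fold or more higher, against 33.0% of 7307 genes past the fold and 17.9% upward. Cxcr3 had 165 CPM in expanded and 68.5 CPM in single cells (log2 ratio 1.28, 0.78 to 1.74). For Cxcr6 the levels were 106 and 51.7 CPM (1.04, 0.42 to 1.61), for Ccr2 43.5 and 16.2 CPM (1.45, 0.40 to 2.38, 14 and 31 UMIs) and for Cxcr5 62.2 and 17.8 CPM (1.82, 0.93 to 2.65, 20 and 34 UMIs). Ccr8 was at -0.47 (-2.08 to 0.65) and Cxcr4 at 0.02. Without naive-type cells 2 of 4 measured members passed the fold.

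At 8 weeks 112 expanded cells of 51 clones were set against 392 single cells. There 4 of 7 members passed the fold, against 22.9% of 7698 genes. Ccr8 had 65.5 CPM in expanded and 24.5 CPM in single cells (1.42, 0.81 to 2.04), and Cxcr5 58.8 and 33.7 CPM (0.81, 0.21 to 1.38). Cxcr4 (0.63, 8 and 13 UMIs) and Ccr4 (-0.86, 5 and 24 UMIs) also passed it with intervals that include 0. Cxcr3 was at 152 and 135 CPM (0.18, -0.16 to 0.50) and Cxcr6 at 90.8 and 67.4 CPM (0.43, -0.02 to 0.87). Of 4 members measured without naive-type cells none passed, and Cxcr5 turned to -0.20. Without cells of 2 or more beta chains 2 of 6 measured members passed. Whether the expanded cells of the ages differ in this was not tested.

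By clones of 1, of 2 to 4 and of 5 or more cells, Cxcr6 in conventional Cd4 cells had 51.7, 60.4 and 259 CPM at 16 weeks and 67.4, 84.6 and 105 CPM at 8 weeks. Ccr2 had 16.2, 32.2 and 81.8 CPM at 16 weeks and 21.2, 11.5 and 26.3 CPM at 8 weeks. The top class at 16 weeks rests on 12 conventional cells of 3 clones, and the intervals of neighbouring classes overlapped for Ccr2. For Cxcr6 at 16 weeks the class of 5 or more cells (156 to 405) stood clear of that of 2 to 4 (33.8 to 99.6). Cxcr5 had 17.8, 76.5 and 13.6 CPM at 16 weeks, the last from 1 UMI, and 33.7, 55.7 and 65.7 CPM at 8 weeks. Cxcr3 had 68.5, 169 and 150 CPM at 16 weeks and 135, 138 and 184 CPM at 8 weeks, and Ccr8 had 27.7, 12.1 and 40.9 CPM and 24.5, 71.1 and 52.6 CPM.

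**Figure D4:**
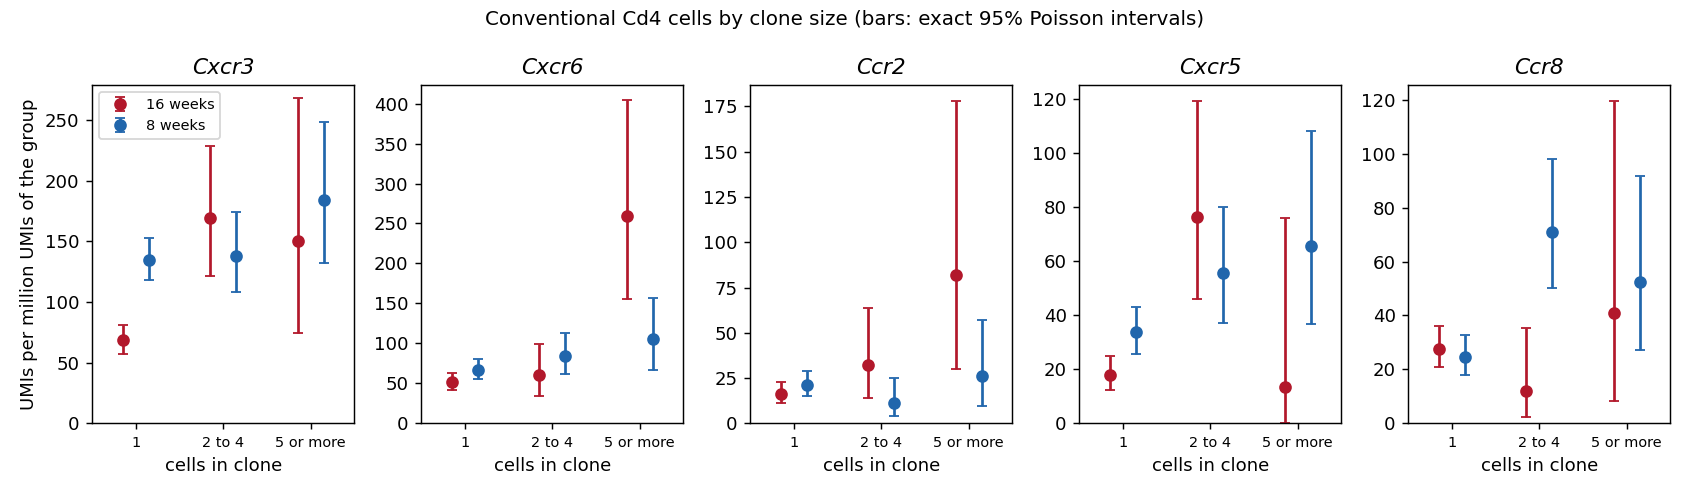
Level of 5 receptor genes in conventional Cd4 cells (y axes, CPM of the group) by the number of cells in the clone (x axes) at 16 weeks (red) and 8 weeks (blue), with exact 95% Poisson intervals. Cxcr6 in clones of 5 or more cells at 16 weeks (259) stands above the smaller clones and rests on 3 clones; Ccr8 is higher in clones of 2 to 4 cells than in single cells at 8 weeks.

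Clones differed in the receptors detected at full depth, and also in depth and class. The largest at 16 weeks, with 7 cells, had Cxcr6 in 5 cells (28 UMIs), Cxcr3 in 4 and Ccr2 in 4, and no Cxcr5. Its 7 cells were deep, with 89897 UMIs in all, where the library median was 2928.5 UMIs per cell. Of these cells 3 were conventional Cd4, 1 was Foxp3-positive and 3 were not classed. The largest at 8 weeks, with 14 cells (12 of them conventional Cd4, 99409 UMIs), had Cxcr3 in 8 cells (14 UMIs) and Cxcr6 in 4 (14 UMIs). Of 2 others at 8 weeks, picked after their values were seen, a clone of 6 conventional Cd4 cells had Cxcr5 in 3 cells (6 UMIs) and Cxcr6 in 1. The second, of 5 cells with 2 of them Foxp3-positive, had Cxcr6 and Ccr8 in 3 cells each and no Cxcr5. The part of depth and class in these differences was not tested. Over all clones of 2 or more kept cells, the share of a cell's clone mates with Ccr2 was 30.5% for cells with Ccr2 and 17.1% for cells without it at 16 weeks, and 43.3% and 8.24% at 8 weeks. Within conventional Cd4 cells these were 34.3% and 11.8% at 16 weeks but 0% and 5.75% at 8 weeks, where no clone held Ccr2 in 2 cells. For Cxcr5 the shares over all clones were 37.6% and 13.4%, and 22.6% and 17.9%. For Cxcr6 they were 41.1% and 25.5%, and 29.8% and 26.5%, and for Ccr8 30.3% and 9.02%, and 25.3% and 25.4%. Cxcr3 gave 51.6% and 39.2%, and 48.9% and 50.6%, so at 8 weeks clone mates of cells with Cxcr3 had it no more often than those of cells without. These shares are at full depth and mates can share depth and class, so they describe these clones only.

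Expanded cells of the other classes were few. In Cd8 cells at 16 weeks 9 expanded cells stood against 219 single ones, and 3 of 3 measured members passed the fold, against 54.4% of 5024 genes. These were Cxcr3 (0.59, -1.21 to 1.76), Cxcr6 (0.99, -0.11 to 1.84, 11 and 103 UMIs) and Ccr9, which had 0 UMIs among the 55214 of the expanded cells and 27 UMIs among the 990210 of single ones. A total of that size cannot show a Ccr9 difference, and Cxcr6 turned to -2.40 without cells of 2 or more beta chains. At 8 weeks, with 26 against 186 Cd8 cells, 1 of 3 passed (36.3% of 5346 genes, 21.9% upward), Ccr2 at 0.85 (-0.48 to 1.95), and Cxcr6 was at 0.58 (0.03 to 1.08). That count was 3 of 3 by the authors' clonotype, by the beta chain alone, with equal cell weights or without cells of 2 or more beta chains, and 0 without the top cell of each gene.

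Foxp3-positive cells at 16 weeks (6 against 79 cells) had 0 of 4 measured members past the fold, against 44.7% of 4035 genes. With so few cells that count was 1 to 3 under 9 of the alternatives, among them 2 of 4 by the authors' clonotype and 2 of 4 without cells of 2 or more beta chains. At 8 weeks, with 13 against 85 cells, 3 of 4 were higher in expanded cells, against 35.9% of 4661 genes. These were Cxcr6 with 244 and 94.9 CPM (1.38, 0.65 to 2.03), Ccr2 with 131 and 53.0 CPM (1.34, 0.31 to 2.23) and Ccr8 with 206 and 114 CPM (0.88, 0.10 to 1.54). Naive-type cells made up 9 of the 13 expanded cells; without them 0 of 2 measured members passed, and Ccr8 turned to -0.47.

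At 1700 UMIs per cell most cells showed none of the 8 receptors, and those with several were rare. At least 1 was found in 52.7% and 55.1% of Foxp3-positive cells at 16 and 8 weeks (a difference of -2.39 percentage points, -16.0 to 11.3), in 26.9% and 30.3% of Cd8 cells (-3.40, -10.7 to 3.88) and in 19.5% and 33.3% of conventional Cd4 cells (-13.8, -18.6 to -8.88). Foxp3-positive cells thus stood above the other classes at both ages, and the ages differed beyond counting error in conventional Cd4 cells. At 2500 UMIs per cell the difference in Cd8 cells was -11.9 percentage points. Exactly 2 receptors were found in 36 of 1017 and 61 of 995 cells of the 3 classes, and 3 or more in 10 and 12 cells. At full depth 1 or more receptor was found in 80.6% and 76.5% of Foxp3-positive cells, 47.2% and 54.6% of Cd8 cells and 31.8% and 47.8% of conventional Cd4 cells.

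Of the 28 pairs, 4 were held by 8 or more thinned cells at each age, and Cxcr6 was in 3 of them. Cxcr6 and Ccr8 were found together in 9 of 1017 cells at 16 weeks, against 2.60 expected from the product of their shares, and in 16 of 995 cells at 8 weeks, against 5.97. The ratios of found to expected were 3.47 and 2.68. Ccr8 was in 10.2% (4.78 to 18.5) of cells with Cxcr6 and in 2.26% (1.40 to 3.43) of cells without it at 16 weeks, and in 14.8% (8.71 to 22.9) and 4.40% (3.14 to 5.96) at 8 weeks, so the intervals were apart at both ages.

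Cxcr6 and Ccr2 were together in 10 cells at 16 weeks (1.99 expected, ratio 5.02) and 8 at 8 weeks (4.56 expected, 1.75). Cxcr3 and Ccr2 were together in 8 cells (2.31 expected, 3.47) and 11 cells (6.88 expected, 1.60). Cxcr3 and Cxcr6, both receptors of type 1 and effector cells, met in 13 cells (8.83 expected, 1.47) and 21 cells (17.7 expected, 1.19), the weakest excess of the 4 at each age. For Cxcr6 with Ccr2 the share of Ccr2 in cells with and without Cxcr6 was 11.4% (5.59 to 19.9) and 1.40% (0.747 to 2.38) at 16 weeks, and 7.41% (3.25 to 14.1) and 3.83% (2.67 to 5.32) at 8 weeks, where the intervals overlapped.

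Classes that differ in both genes of a pair raise such ratios, so the expected number was also summed class by class. It then left ratios of 2.54 and 2.56 for Cxcr6 with Ccr8, 3.68 and 1.52 for Cxcr6 with Ccr2, 2.48 and 1.45 for Cxcr3 with Ccr2 and 1.30 and 1.26 for Cxcr3 with Cxcr6. Among the 427 and 573 cells with 0 or 1 naive gene the ratios were 2.34 and 2.25, 3.16 and 1.86, 2.17 and 1.38, and 0.98 and 1.09, in the same order of pairs. Cxcr3 and Cxcr6 thus met about as often as their shares predict once naive-type cells were set aside, while Cxcr6 with Ccr8 kept ratios above 2 at both ages.

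Without cells of 2 or more beta chains the ratios over the 3 classes were 2.68 and 2.77 for Cxcr6 with Ccr8, 5.73 and 2.79 for Cxcr6 with Ccr2, 4.23 and 2.08 for Cxcr3 with Ccr2 and 1.69 and 1.51 for Cxcr3 with Cxcr6. At 1000 UMIs per cell Cxcr3 with Cxcr6 was at 0.666 at 8 weeks.

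Within conventional Cd4 cells Cxcr6 and Ccr2 were together in 7 cells (0.58 expected) at 16 weeks and 4 (1.29 expected) at 8 weeks. In Cd8 cells Cxcr3 and Cxcr6 met in 1 cell (2.98 expected) and 3 cells (4.75 expected). Outside the rule of 8 cells, and picked after the values were seen, Cxcr5 was found with Cxcr3 in 11 cells at 16 weeks (2.91 expected) and 7 at 8 weeks (5.57 expected), and with Cxcr6 in 1 cell (2.51 expected) and 0 cells (3.69 expected). These are counts of a few cells each.

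**Figure D5:**
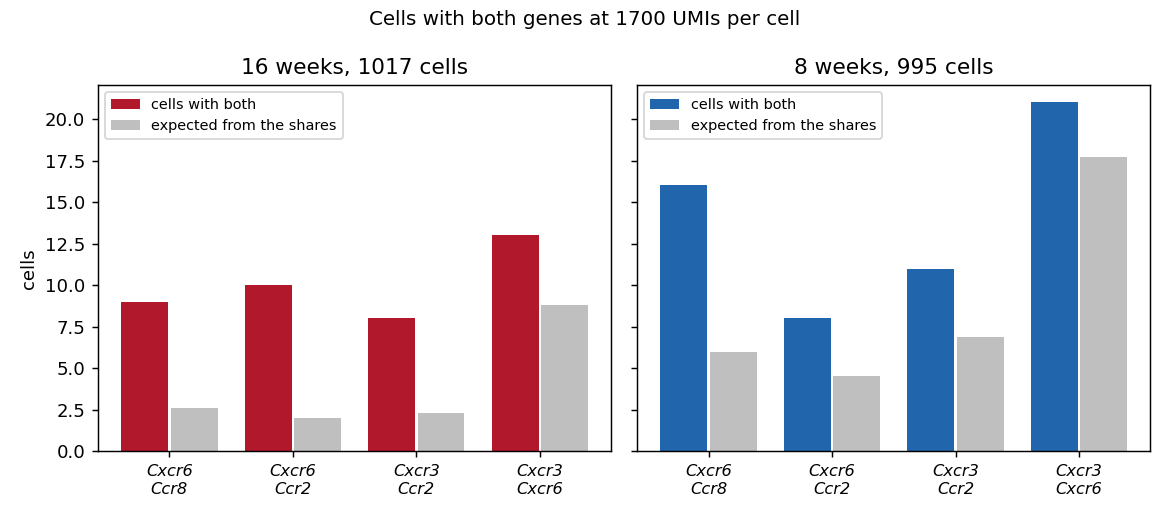
Number of cells (y axis) of the 3 classes together, thinned to 1700 UMIs, that held both genes of a pair, beside the number expected from the product of the 2 shares (grey), at 16 weeks (left, 1017 cells) and 8 weeks (right, 995 cells). Cxcr6 with Ccr8 was found in 9 and 16 cells against 2.60 and 5.97 expected, and Cxcr3 with Cxcr6 in 13 and 21 against 8.83 and 17.7.

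Cells with a receptor were then set against cells without it, over the 3 classes at 1700 UMIs, for the 3 receptors found in 30 or more cells of each library. Those with Cxcr6 (88 and 108 cells) had raised effector genes, and some raised regulatory markers too. The 5 genes most raised at both ages, by the smaller log2 ratio of the 2 libraries over 4977 genes, were Ccl4, a chemokine of activated T cells (2.56 at 16 weeks and 4.0 at 8 weeks), Ccl5, a chemokine of effector and memory T cells (2.54 and 2.02), S100a4, a calcium-binding protein of memory T cells (2.30 and 2.0), Ccr8 itself (2.31 and 1.91) and Litaf (1.91 and 2.68). In conventional Cd4 cells alone Ccl4 was at 3.0 and 3.81, Ccl5 at 3.52 and 3.59 and S100a4 at 2.55 and 2.49. At full depth Ccl4 was in only 33 of 648 and 26 of 655 conventional Cd4 cells, and Ccl5 in 49 and 59. The top cell held 20.5% to 46.4% of the Ccl4 UMIs of a class, so ratios of Ccl4 can rest on few cells. Of 5 cytotoxic genes compared 4 were 1.5-fold or more higher with Cxcr6 at both ages, where 5.49% of genes were, among them Gzmk, a granzyme (1.94 and 1.55), and Nkg7 (1.91 and 1.65). Of 6 type 1 genes 4 were higher, including Ifng, the type 1 cytokine (0.87 and 2.17). Regulatory markers gave the same count, 4 of 6, among them the inhibitory receptor Ctla4 (1.08 and 0.85) and Tnfrsf4 (0.97 and 0.87). The remaining regulatory markers, Ikzf2 (1.43 and -0.14) and Tnfrsf18 (0.78 and -0.34), were higher at 16 weeks only. Rgs1, which damps chemokine receptor signals, was at 2.25 and 1.55, and the integrin chain Itgae of tissue-resident cells at 1.33 and 2.02. Among conventional Cd4 cells alone Rgs1 was at 3.07 and 1.89, but Itgae was at -0.37 at 16 weeks and 0.94 at 8 weeks. Id3, a regulator kept by naive and memory cells, was lower, at -1.77 and -1.64, and 3 of 10 naive genes were lower at both ages, against 2.49% of genes.

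Ccr8 marked cells with a regulatory and activated profile (30 and 55 cells). Its 5 genes were Ccl4 (2.96 and 2.66), Tnfrsf4, the costimulatory receptor OX40 (2.42 and 2.54), Angptl2 (2.88 and 2.28), Mxd1 (2.14 and 2.40) and Spry1, a brake on growth factor signals (2.14 and 2.07). The limit given above for Ccl4 holds here too, with fewer cells that have the receptor. All 6 regulatory markers compared were 1.5-fold or more higher at both ages, against 12.5% of genes, with Ctla4, an inhibitory receptor, at 1.94 and 2.02. Conventional Cd4 cells alone gave 1.72 and 1.77 for Ctla4 and 2.21 and 2.25 for Tnfrsf4. Of 9 follicular helper genes 6 were higher, among them Icos (2.04 and 1.5) and Pdcd1 (1.31 and 1.92). Of 10 naive genes 8 were lower, against 4.44% of genes.

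Cxcr3 gave smaller ratios (102 and 163 cells). The 5 genes were Rbms2 (1.32 and 1.37), Clps, a lipase cofactor of acinar cells (1.61 and 1.32), Unc119b (1.44 and 1.27), Med7 (1.94 and 1.27) and Carkd (1.19 and 1.29). Clps belongs to the acinar RNA found in every class, and whether it moves with Cxcr3 through free RNA was not tested. Of 9 follicular helper genes 5 were higher at both ages, against 3.84% of genes, with the cytokine Il21 at 0.59 and 0.99, Icos at 0.82 and 1.11 and Pdcd1 at 1.09 and 0.63. Of 6 type 1 genes only Ccl5 was, and of 5 cytotoxic genes none. Of 10 naive genes 6 were lower, against 1.79% of genes, with Lef1 at -1.91 and -1.88 and Ccr7 at -1.5 and -1.48. The other 5 receptors were in too few cells for such a comparison.

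Receptors outside the 8 ran differently. Ccr7, the lymph node receptor, had 116 CPM at 16 weeks and 81.8 CPM at 8 weeks in Foxp3-positive cells (log2 ratio 0.51, 0.03 to 0.98), 268 and 216 CPM in Cd8 cells (0.31, 0.08 to 0.54) and 253 and 197 CPM in conventional Cd4 cells (0.36, 0.20 to 0.52). Gpr183, which draws cells along oxysterols to the edge of follicles, had 51.7 and 25.0 CPM in Foxp3-positive cells (1.03, 0.24 to 1.88) and 50.8 and 34.2 CPM in conventional Cd4 cells (0.57, 0.19 to 0.95). Of the 18 other receptors listed, 3 of 7 measured in Foxp3-positive cells and 2 of 5 in Cd8 cells were 1.5-fold or more higher at 16 weeks and none was lower, with medians of 0.51 and 0.31 beside -0.02 and -0.05 over all genes. Higher genes made up 10.1% and 6.51% of all measured genes in these classes.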

How the data were processed

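The values are UMI counts, whole numbers for each gene in each cell barcode, as deposited by the authors, with matrix software version 3.0.1 per the file headers. The deposited contig tables give the UMI and read counts of each receptor chain. The submitters' processing notes name Seurat and the build mm10, without saying what Seurat was used for; no aligner or barcode filter is named in the sources used here. Gene positions are from GENCODE M21 and promoters from RefSeq, build GRCm38.p6.

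A cell had to show at least 500 genes, which left out 151 barcodes at 16 weeks and 136 at 8 weeks, and at most 10% of its UMIs from mitochondrial genes, which left out 22 and 32. Cells with 1% or more acinar UMIs or 3 or more B cell UMIs were left out, 10 at each age. No doublet caller was run. Cells with 2 or more productive beta chains (234 and 201) were kept, and left out in an alternative. The libraries shared 5 barcodes and 1 paired receptor. Foxp3-positive cells had 1 or more Cd4 and Foxp3 UMIs and no Cd8a or Cd8b1 UMI, conventional Cd4 cells the same without Foxp3, and Cd8 cells 1 or more Cd8a or Cd8b1 UMIs without Cd4.

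UMIs were summed per class, and log2 ratios of shares of the class total had 0.5 UMIs added to each sum. A gene was measured at 20 or more UMIs over both groups and called at 1.5-fold. Intervals (95%) are exact Poisson for levels, exact conditional binomial for ratios, Clopper-Pearson for shares and Newcombe for differences of shares, and cover counting error only. A share of 0 was given an upper limit of 3 counts of the total. Thinning drew 1700 UMIs per cell without replacement, leaving out shallower cells. A clone shared the CDR3 and segments of the alpha and the beta chain with most UMIs in each cell. The summing, thinning and pair counts were tested on simulated data.

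The receptor genes and gene lists were chosen with earlier results of these data known. Listed genes with 50 or more UMIs could be named, except some that are not reported here, as could the 5 genes most alike for receptors in 30 or more thinned cells and pairs in 8 or more cells of each library. Alternatives covered cell filters, gates, totals, depth, clone definitions, equal weighting of cells and clones, top cells, cells with 2 or more beta chains and, added after seeing the data, naive-type cells. Python 3.11.15, numpy 2.4.6, pandas 2.3.3, scipy 1.17.1 and matplotlib 3.10.9 were used.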

Additional observations from a re-analysis of the deposited data

How the results depend on the processing

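Of the log2 ratios of single receptors under the alternatives, 702 stayed within their interval, 51 moved and 6 turned. A ratio within its interval could still cross the 1.5-fold line. Cxcr4 in Foxp3-positive against conventional Cd4 cells at 8 weeks did so when centred on the median gene. Of the shares 171 held and 69 moved, and of the pairs 47 held and 3 moved. Those 3 were Cxcr6 with Cxcr5 at 16 weeks, at 0 of its expected number without cells of 2 or more beta chains and at 1000 UMIs (0.399 otherwise), and Cxcr3 with Cxcr6 at 8 weeks, at 0.666 at 1000 UMIs (1.19 otherwise). Counts past 1.5-fold that moved by over 1.5 times were the following, and in some of these settings fewer members were measured. For age in conventional Cd4 cells (3), 5 without cells of 2 or more beta chains and 0 without naive-type cells. For age in Foxp3-positive cells (2), 1 of only 4 measured members without cells of 2 or more beta chains, with a gate of 2 UMIs and with 50 UMIs to be measured. For age in Cd8 cells (4), 1 of 3 measured members without naive-type cells. For Cd8 against conventional Cd4 cells at 8 weeks (6), 3 of 5 measured members with 50 UMIs to be measured. For expanded conventional Cd4 cells, 2 at 16 weeks (4) without naive-type cells, and at 8 weeks (4) 0 without naive-type cells, 1 with a gate of 2 UMIs and 2 without cells of 2 or more beta chains, with 50 UMIs to be measured or with the regulatory score. For expanded Foxp3-positive cells at 16 weeks (0), 3 with the regulatory score, 1 with the stricter cell filter or equal cell weights, and 2 without cells of 2 or more beta chains, without the top cell, with a gate of 2 UMIs, by the authors' clonotype, by the beta chain alone or without naive-type cells; at 8 weeks (3), 1 with the regulatory score and 0 without naive-type cells. For expanded Cd8 cells, 0 at 16 weeks (3) without naive-type cells, and at 8 weeks (1) 3 without cells of 2 or more beta chains, with equal cell weights, by the authors' clonotype or by the beta chain alone, 2 with the stricter filter or a gate of 2 UMIs, and 0 without the top cell or with 50 UMIs to be measured.

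Log2 ratios that turned were Cxcr6 in expanded against single Cd8 cells at 16 weeks (0.99), at -2.40 without cells of 2 or more beta chains, -2.46 by the authors' clonotype and -0.28 without naive-type cells; Cxcr5 in Foxp3-positive against conventional Cd4 cells at 8 weeks (-1.11), at 0.52 with the regulatory score; and, without naive-type cells at 8 weeks, Cxcr5 in expanded conventional Cd4 cells at -0.20 and Ccr8 in expanded Foxp3-positive cells at -0.47. At 2500 UMIs the share of Cd8 cells with 1 or more receptors differed by -11.9 percentage points, against -3.40 at 1700. The cause of these moves was not tested. The alternative without naive-type cells was chosen after seeing the data. No paired analysis was possible because each age had 1 library, and none could be left out. Cxcr4, Ccr4 and Ccr9 were limited by depth.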

Other observations

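Of 20 chemokine genes listed, 19 were found in the gene table, 8 had 0 UMIs in the 3 classes and 7 had 50 or more UMIs. Ccl1, the ligand of Ccr8, had 0 UMIs at 16 weeks and 24 at 8 weeks in Foxp3-positive cells, 23 of them in 1 cell. Conventional Cd4 cells had 11 UMIs at 16 weeks and 106 at 8 weeks (4.14 and 34.8 CPM), with 95 of the 106 in 1 cell. The sum of Ccl1 at 8 weeks thus lies mostly in 1 cell of each class. Cxcl10, a ligand of Cxcr3, had 24.4 CPM at 16 weeks and 6.82 CPM at 8 weeks in Foxp3-positive cells (log2 ratio 1.77, 0.43 to 3.47), from 17 and 6 UMIs with 10 of the 17 in 1 cell. Cd8 cells had 12.8 and 1.46 CPM of it (17 and 2 UMIs) and conventional Cd4 cells 5.64 and 7.89 CPM. Ccl25, the ligand of Ccr9, had 9.78 and 8.55 CPM in conventional Cd4 cells, where no cell held more than 2 UMIs of it.

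Other chemokine genes were abundant. Ccl5 had 1603 CPM at 16 weeks and 765 CPM at 8 weeks in Foxp3-positive cells, 4737 and 4957 CPM in Cd8 cells and 746 and 335 CPM in conventional Cd4 cells. Ccl4 had 268 and 289 CPM in Foxp3-positive cells, 244 and 323 CPM in Cd8 cells and 268 and 116 CPM in conventional Cd4 cells. The top cell held 34.1% of the 713 Ccl4 UMIs of conventional Cd4 cells at 16 weeks and 39.1% of the 353 at 8 weeks. Xcl1, which draws cross-presenting dendritic cells, had 200 and 197 CPM in Cd8 cells and 12.0 and 36.5 CPM in conventional Cd4 cells. In Cd8 cells at 16 weeks 99 of the 265 Xcl1 UMIs came from 1 cell.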
